A study of Mus musculus with 3 samples.

Results

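Eicosanoids are lipid mediators made from arachidonic acid, and the 10 genes examined here encode enzymes that make prostaglandins, thromboxane and leukotrienes or receptors for prostaglandin E2. They were chosen by symbol, as Ptgs1, Ptgs2, Ptges, Tbxas1, Hpgds, Alox5, Alox5ap, Lta4h, Ptger2 and Ptger4, out of 22238 genes listed in all 3 libraries. All 10 were listed in every library. Cyclooxygenases convert arachidonic acid to prostaglandin H2, and terminal synthases turn this into prostaglandin E2, prostaglandin D2 or thromboxane A2. In a separate branch 5-lipoxygenase, assisted by its activating protein, makes leukotriene A4, which a hydrolase converts to the neutrophil attractant leukotriene B4. Myeloid cells are a major source of these lipids in inflamed tissue.

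RNA was sequenced from 3 cell populations of adult female C57BL/6J mice with experimental autoimmune encephalomyelitis (EAE), a model of central nervous system autoimmunity. All mice received myelin oligodendrocyte glycoprotein peptide in complete Freund's adjuvant and 250 ng of pertussis toxin, and cells were sorted on days 14 to 15. The sample titles mark all 3 as WT. All sorted cells were CD45+, CD11b+ and Ly6G-. Bone marrow monocytes were in addition Ly6Chi and CD11c-, spinal cord monocytes Ly6Chi and CD64+, and the monocyte-derived APCs (antigen-presenting cells) of the spinal cord CD64+ and Ly6Clow/-. The title and tissue label of the APC sample give the spinal cord, whereas its source label gives the bone marrow. Cells of several mice from independent experiments were combined into 1 library per population, no unimmunized mice were among the samples, and the bone marrow gate did not use CD64. Preparation differed too: spinal cords were digested with collagenase and DNase and run on a Percoll gradient. Bone marrow was flushed out and its monocytes enriched with a kit. Tissue and preparation thus differ together between bone marrow and spinal cord libraries, and the part of preparation was not tested. With 1 library per population there is no replicate check of any difference, and every interval covers counting error alone. The intervals treat reads as independent, which PCR copies of a molecule are not, so they may be too narrow even for counting error.

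The libraries held 27283795 to 33280643 estimated reads. Levels are TPM (the abundance of transcripts relative to all transcripts, corrected for their length), rescaled to sum to 1000000 over the common genes, and a gene over 3 TPM was taken as active. Differences are log2 ratios of reads, given with a 98% counting interval, and a gene was called higher or lower where this whole interval lay beyond a 2-fold change and the gene was active on at least 1 side of the comparison. The 8 monocyte markers examined, Ly6c2 and Ccr2 among them, were active in every library. Their summed level was 10612 TPM in monocytes of the bone marrow, 11473 TPM in those of the spinal cord and 4997 TPM in APCs. Some of them, such as Ly6c2, belong to markers used in the sort, so these levels are not an independent check of identity. The APC library was quantified on a smaller set of transcripts than the monocyte libraries (22242 against 54432 genes listed), and where this moved a value the log2 ratio of reads divided by effective length is given as well.

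The promoters shown are those of the 3 genes that were called higher in spinal cord than in bone marrow monocytes under every setting tried (Ptgs2, Hpgds and Ptger4), and that of Ptgs1, the isozyme of Ptgs2. Each runs from 250 bases before to 30 bases after the RefSeq transcript start on GRCm38.p6, 5′ to 3′ on the strand of the gene, and capitals mark matches to the motifs searched. They lie at chr1:150099781-150100060 (plus strand, Ptgs2), chr2:36230176-36230455 (plus strand, Ptgs1), chr6:65144701-65144980 (minus strand, Hpgds) and chr15:5244158-5244437 (minus strand, Ptger4).
Ptgs2: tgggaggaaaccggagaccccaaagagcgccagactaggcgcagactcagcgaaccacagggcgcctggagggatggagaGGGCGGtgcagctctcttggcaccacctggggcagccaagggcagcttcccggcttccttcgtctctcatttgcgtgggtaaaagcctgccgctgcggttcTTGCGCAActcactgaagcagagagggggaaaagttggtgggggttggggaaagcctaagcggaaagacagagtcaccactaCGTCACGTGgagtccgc
Ptgs1: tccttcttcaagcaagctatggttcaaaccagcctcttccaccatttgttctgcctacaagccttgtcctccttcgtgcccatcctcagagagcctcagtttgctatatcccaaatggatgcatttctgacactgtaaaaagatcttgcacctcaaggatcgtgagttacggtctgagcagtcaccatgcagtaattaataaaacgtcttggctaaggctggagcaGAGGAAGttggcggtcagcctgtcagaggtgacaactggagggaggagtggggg
Hpgds: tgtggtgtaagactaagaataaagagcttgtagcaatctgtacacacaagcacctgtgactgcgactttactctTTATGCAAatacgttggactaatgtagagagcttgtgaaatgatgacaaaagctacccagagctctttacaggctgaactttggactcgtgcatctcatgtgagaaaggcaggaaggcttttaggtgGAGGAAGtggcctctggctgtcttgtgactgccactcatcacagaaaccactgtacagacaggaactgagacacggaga
Ptger4: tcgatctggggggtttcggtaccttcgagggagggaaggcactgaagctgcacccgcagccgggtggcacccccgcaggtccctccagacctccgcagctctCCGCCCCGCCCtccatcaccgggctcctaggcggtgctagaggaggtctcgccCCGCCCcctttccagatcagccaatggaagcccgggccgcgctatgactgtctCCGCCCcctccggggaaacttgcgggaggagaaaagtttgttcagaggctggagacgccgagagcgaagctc

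Both strands were searched for 7 motifs by their letters, and each share is that of 32851 RefSeq promoters of the same length. The Ptgs2 promoter held matches to 4 of them. A GC box (letters GGGCGG, in 34.7% of promoters) started 170 bases upstream of the start, and a palindromic C/EBP-type match (letters TTGCNNAA, in 10.4% of promoters) started 69 bases upstream. An E box (letters CACGTG, in 6.79% of promoters) started at base 17 of the transcript, and it overlapped a core of the cAMP response element (letters TGACG, in 19.9% of promoters), read on the minus strand, at base 14. The Ptgs1 promoter held a PU.1-type match (letters GAGGAAG, in 12.2% of promoters) 24 bases upstream and no other. Hpgds had a PU.1-type match 49 bases upstream and a C/EBP-type match 176 bases upstream. Ptger4 held 4 GC boxes on the minus strand, the furthest 148 bases upstream and overlapping the next. Of the 9 members with an entry in the promoter table, none held the NF-kappa B-type letters GGGNNTTCC, which 5.54% of all promoters did. Tbxas1 held a TATA box (letters TATAAA, in 13.1% of promoters) 11 bases upstream, which overlapped a reverse TATA box and lay next to a PU.1-type match. The matches describe letters in these windows and not binding, which was not measured.

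Both cyclooxygenase genes were called higher in each spinal cord library than in bone marrow monocytes, Ptgs2 by far the more. Ptgs2, which encodes the inducible isozyme COX-2 (GRCm38 chr1:150100031-150108227), was at 1.26 TPM in monocytes of the bone marrow (95% Wilson interval 1.05 to 1.52, 113 reads), 580.4 TPM in those of the spinal cord (46071 reads) and 519.6 TPM in APCs (45275 reads). Both spinal cord libraries were thus far above the bone marrow library and close to each other. Spinal cord monocytes exceeded bone marrow monocytes by 9.15 on the log2 scale (98% interval 8.84 to 9.47), a 566-fold difference that ranked 40 from the top among 10072 active genes. APCs exceeded bone marrow monocytes by 8.96 (8.66 to 9.29), and differed from spinal cord monocytes by -0.18 (-0.20 to -0.16), which was not called. By level, Ptgs2 was among the top 1.35% of common genes in spinal cord monocytes and the top 1.3% in APCs, against the top 45.9% in bone marrow monocytes.

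Ptgs1, which encodes the constitutive isozyme COX-1 (chr2:36230426-36252272), was at 17.3 TPM in monocytes of the bone marrow (795 reads), 38.1 TPM in those of the spinal cord (1576 reads) and 50.4 TPM in APCs (2752 reads). The bone marrow library was lowest and the APC library highest, over a far smaller range than for Ptgs2. The gene was called higher in spinal cord than in bone marrow monocytes, with a log2 difference of 1.47 (1.32 to 1.62), and in APCs than in bone marrow monocytes, with 2.12 (1.98 to 2.25). Between APCs and spinal cord monocytes the difference was 0.65 (0.54 to 0.75) and was not called. The ratio of Ptgs2 to Ptgs1, both in TPM, was 0.0731 in monocytes of the bone marrow, 15.2 in those of the spinal cord and 10.3 in APCs. Ptgs1 was therefore the more abundant cyclooxygenase transcript in the bone marrow library, and Ptgs2 in both spinal cord libraries. In such bulk libraries a lower level in each cell cannot be told apart from fewer cells that hold the transcript.

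**Figure D1:**
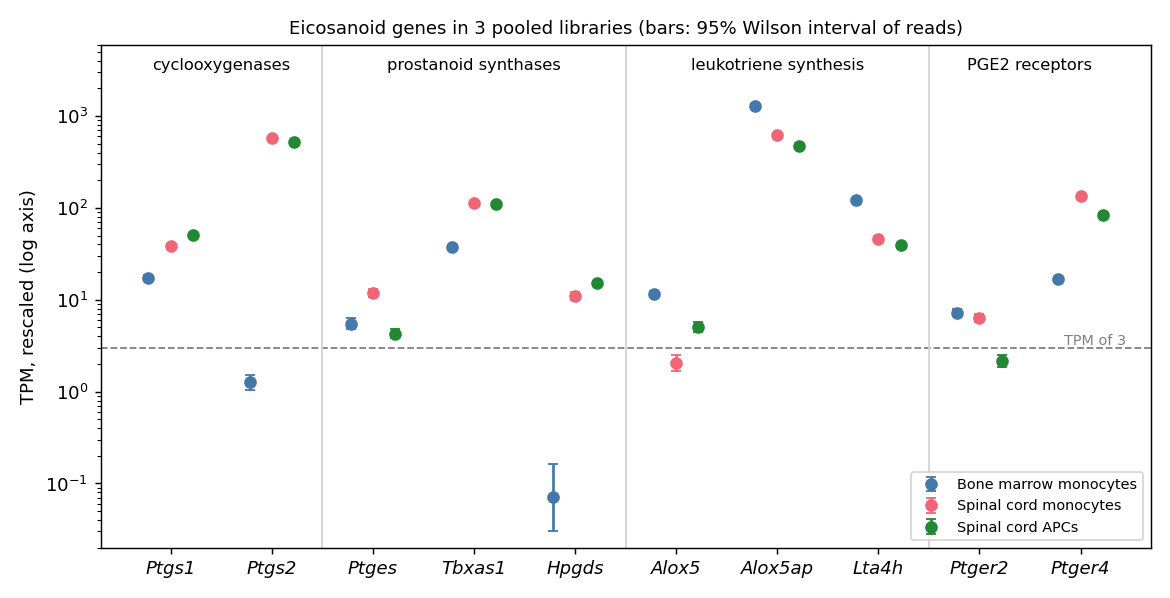
Levels of the 10 genes (x axis) in rescaled TPM on a log axis (y axis), with points for bone marrow monocytes (blue), spinal cord monocytes (red) and APCs (green), each 1 library. Bars are 95% Wilson intervals of the reads and the dashed line is the 3 TPM threshold. Ptgs2 sits at 1.26 TPM in bone marrow monocytes against 580.4 and 519.6 TPM in the spinal cord libraries, and Alox5ap and Lta4h are highest in bone marrow monocytes.

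Of the 3 terminal synthases among the 10 genes, Tbxas1 was the most abundant in every library. It encodes thromboxane A synthase (chr6:38875404-39084585) and was at 37.3 TPM in monocytes of the bone marrow (1460 reads), 113 TPM in those of the spinal cord (3504 reads) and 111 TPM in APCs (3101 reads). The gene was called higher in spinal cord monocytes than in bone marrow monocytes, by 1.75 (1.64 to 1.85), and in APCs than in bone marrow monocytes, by 1.41 (1.31 to 1.52). In reads per effective length the latter difference was 1.90 (1.80 to 2.01), also called higher. APCs and spinal cord monocytes differed by -0.33 in reads and by 0.05 in reads per effective length, and neither was called. Tbxas1 overlaps Hipk2 and other genes on the opposite strand. Whether the counting used strand is not given in the sources used here. The overlap is that of whole gene spans, and shared exons were not looked for. Whether reads from these genes entered its count was therefore not tested.

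Hpgds encodes the hematopoietic prostaglandin D synthase (chr6:65117293-65144908), an enzyme best known from mast cells, microglia and some T cells. It had 5 reads in bone marrow monocytes, or 0.0706 TPM (0.0300 to 0.165), against 368 reads and 11.1 TPM (10.02 to 12.3) in spinal cord monocytes and 1014 reads and 15.1 TPM (14.2 to 16.0) in APCs. The bone marrow level was close to the floor of 3 reads, which stood at 0.0422 TPM for this gene. Spinal cord monocytes were called higher than bone marrow monocytes by 6.51 (5.28 to 8.18), and APCs by 7.81 (6.59 to 9.48). APCs were also called higher than spinal cord monocytes, by 1.30 (1.10 to 1.51) in reads, but by 0.52 (0.32 to 0.73) in reads per effective length this was not called. The effective length of Hpgds was 1712 bases in the spinal cord monocyte library and 3226 bases in the APC library.

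Ptges encodes microsomal prostaglandin E synthase-1 (chr2:30889471-30929863), the inducible enzyme that commonly acts together with COX-2. Its level was 5.48 TPM in monocytes of the bone marrow (4.76 to 6.31, 194 reads), 11.9 TPM in those of the spinal cord (10.7 to 13.1, 377 reads) and 4.26 TPM in APCs (3.81 to 4.77, 302 reads). Spinal cord monocytes were called higher than bone marrow monocytes by 1.44 (1.15 to 1.74), and this call was lost when reads were scaled by the library totals (1.25), when 1 was added to TPM (0.99) and when all genes of the monocyte libraries were used (1.19). In the comparisons with APCs the 2 scales parted. APCs differed from spinal cord monocytes by -0.48 in reads, which was not called, and by -1.39 (-1.65 to -1.14) in reads per effective length, which was called lower. Against bone marrow monocytes the APC difference was 0.96 in reads and -0.04 per effective length, and neither was called. Per unit of Ptges, Ptgs2 stood at 0.23 in monocytes of the bone marrow, 48.9 in those of the spinal cord and 122 in APCs on the TPM scale.

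Among the synthases, the ratio of Tbxas1 to Hpgds on the TPM scale was 528.5 in monocytes of the bone marrow, 10.2 in those of the spinal cord and 7.38 in APCs. The first of these ratios rests on 5 reads of Hpgds. Tbxas1 stood at 6.81 times the level of Ptges in monocytes of the bone marrow, 9.56 times in those of the spinal cord and 26.1 times in APCs. The APC ratio again carries the longer effective length of Ptges in that library. The order Tbxas1, then Ptges and Hpgds, held in both monocyte libraries, where Ptges and Hpgds had overlapping intervals in spinal cord monocytes. In APCs Hpgds stood above Ptges.

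The effective lengths show where the transcript set bears on these genes. In GENCODE M21 on GRCm38, 5 members (Ptgs1, Ptges, Hpgds, Lta4h and Ptger2) have 1 coding transcript each, and for all 5 of them the length given in the APC library equalled the length of that transcript. For Ptges this was 3647 bases, against lengths of 1907 and 1904 bases in the bone marrow and spinal cord monocyte libraries, which also count shorter noncoding transcripts of the gene. Ptgs2, with effective lengths of 4195, 4096 and 4180 bases, and Ptger4, with 3020, 3010 and 3034 bases, hardly differed among the libraries. Changes in transcript use and the change of transcript set cannot be told apart in comparisons with APCs.

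**Figure D2:**
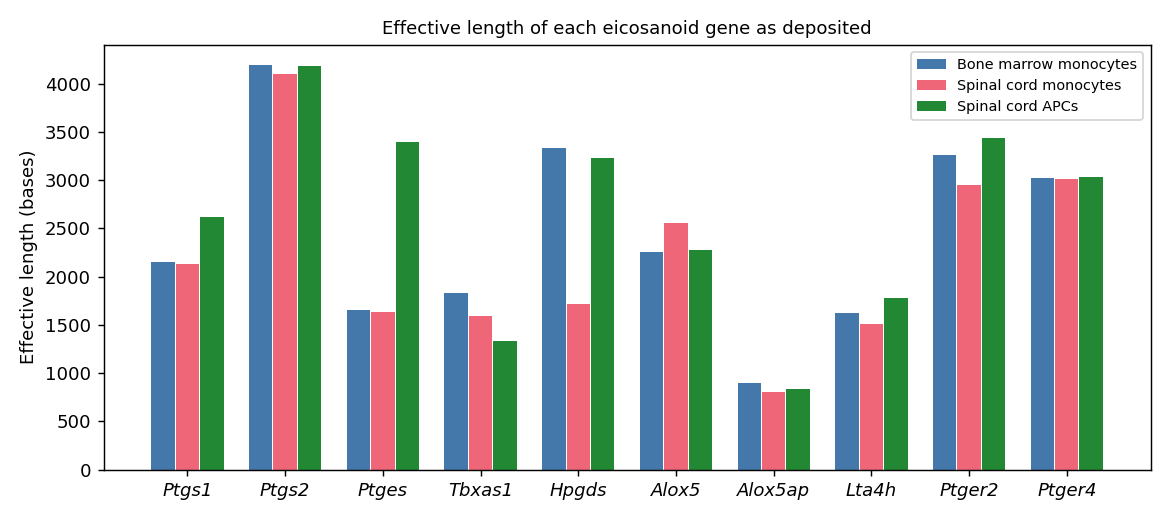
Effective length in bases (y axis) of each of the 10 genes (x axis) as deposited for bone marrow monocytes (blue), spinal cord monocytes (red) and APCs (green), 1 library each. Ptges and Hpgds show the widest gaps between spinal cord monocytes and APCs, 1638 against 3397 bases and 1712 against 3226 bases.

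All 3 leukotriene genes had their highest level in bone marrow monocytes, and their summed level was 1406 TPM there, 677 TPM in monocytes of the spinal cord and 513 TPM in APCs. The summed level of the cyclooxygenases was 18.5, 619 and 570 TPM in the same order. Alox5ap, which encodes the 5-lipoxygenase-activating protein FLAP (chr5:149264767-149288153), was the most abundant member in bone marrow monocytes at 1274 TPM (24291 reads), within the top 0.612% of common genes. It was at 628 TPM in spinal cord monocytes (9764 reads) and 469 TPM in APCs (8204 reads). Spinal cord monocytes differed from bone marrow monocytes by -0.83 (-0.87 to -0.79), which was not called, and APCs were called lower than bone marrow monocytes, by -1.24 (-1.28 to -1.20). The TPM-based alternatives, with 1 or 0.1 TPM added, put the first of these just beyond 2-fold, at -1.02 in both cases.

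Alox5 encodes 5-lipoxygenase itself (chr6:116410077-116461178). It was at 11.6 TPM in monocytes of the bone marrow (10.7 to 12.6, 558 reads), 2.06 TPM in those of the spinal cord (1.70 to 2.50, 102 reads) and 5.001 TPM in APCs (4.40 to 5.68, 237 reads). Spinal cord monocytes held the lowest level and were the library in which the gene was not active. They were called lower than bone marrow monocytes, by -1.96 (-2.33 to -1.61). APCs differed from spinal cord monocytes by 1.05 (0.66 to 1.46) and from bone marrow monocytes by -0.91 (-1.17 to -0.65), and neither was called, the intervals crossing the 2-fold bound. FLAP transcript stood at 110 times the level of 5-lipoxygenase transcript in monocytes of the bone marrow, 305 times in those of the spinal cord and 93.7 times in APCs on the TPM scale.

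Lta4h, the gene of leukotriene A4 hydrolase (chr10:93453411-93484875), was at 121 TPM in monocytes of the bone marrow (4197 reads), 46.4 TPM in those of the spinal cord (1358 reads) and 39.0 TPM in APCs (1448 reads). The spinal cord libraries were close to each other, with a difference of -0.06 (-0.19 to 0.06). Both were called lower than bone marrow monocytes, by -1.15 (-1.25 to -1.04) and -1.21 (-1.31 to -1.11).

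The prostaglandin E2 receptors EP2 and EP4 both couple to cAMP formation, and their genes differed in pattern. Ptger4, which encodes EP4 (chr15:5206661-5244187), was at 16.7 TPM in monocytes of the bone marrow (1076 reads), 137 TPM in those of the spinal cord (7967 reads) and 84.8 TPM in APCs (5364 reads). Spinal cord monocytes were called higher than bone marrow monocytes by 3.37 (3.26 to 3.48), a 10.3-fold difference, and APCs by 2.64 (2.53 to 2.75). The APC level was below that of spinal cord monocytes by a log2 difference of -0.73 (-0.79 to -0.67), which was not called. The span of Ttc33 overlaps that of Ptger4 on the opposite strand, as Gm17173 does Ptger2 and Gm19719 does Alox5ap. Whether their reads entered these counts was not tested either.

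Ptger2, the gene of EP2 (chr14:44988195-45003820), was at 7.23 TPM in monocytes of the bone marrow (6.63 to 7.89, 504 reads), 6.36 TPM in those of the spinal cord (5.74 to 7.04, 364 reads) and 2.15 TPM in APCs (1.84 to 2.52, 154 reads). The monocyte libraries had overlapping intervals and a log2 difference of 0.01 (-0.22 to 0.24), and the APC library was below the activity threshold. APCs were called lower than spinal cord monocytes by -1.39 (-1.72 to -1.08) and than bone marrow monocytes by -1.38 (-1.70 to -1.08), and both calls were lost with the stricter interval bound of 0.001. On the TPM scale EP4 transcript stood at 2.31 times the level of EP2 transcript in monocytes of the bone marrow, 21.5 times in those of the spinal cord and 39.4 times in APCs.

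**Figure D3:**
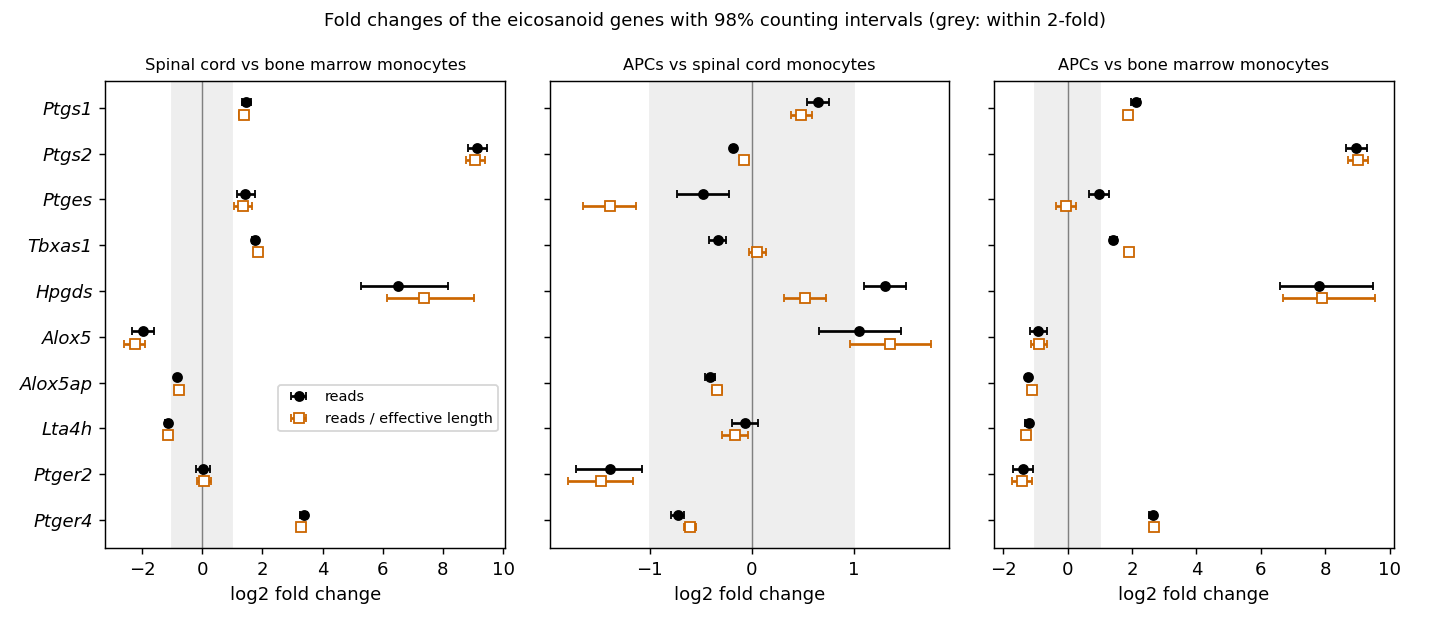
Log2 fold changes (x axes) of the 10 genes (y axis) in the 3 comparisons, each of 1 library with 1 other, from reads (black circles) and from reads divided by effective length (open squares). Bars are 98% counting intervals and the grey band marks changes within 2-fold, and the x axes differ in range. Ptgs2, Hpgds and Ptger4 lie far to the right of the band in both comparisons with bone marrow monocytes, and Ptges and Hpgds move between the scales in the comparison of APCs with spinal cord monocytes.

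Counted together, 6 of the 10 genes were called higher in spinal cord than in bone marrow monocytes (Ptgs1, Ptgs2, Ptges, Tbxas1, Hpgds and Ptger4), against 13.8% of all 10072 active genes. In the same comparison 2 were called lower (Alox5 and Lta4h), against 10.7% of all active genes. The median log2 difference was 1.45 over the 10 genes and -0.145 over all active genes. Between APCs and spinal cord monocytes 1 gene was called higher (Hpgds) and 1 lower (Ptger2), where 1.93% and 1.7% of 9734 active genes were called in these directions, and the medians were -0.26 over the 10 genes and -0.04 over all active genes. Between APCs and bone marrow monocytes 5 were called higher (Ptgs1, Ptgs2, Tbxas1, Hpgds and Ptger4) and 3 lower (Alox5ap, Lta4h and Ptger2), against 14% and 11.8% of 10190 active genes, and the medians were 1.19 and -0.17. The bone marrow library is shared by the first and last of these comparisons, so they do not stand apart from each other. All 10 genes were active in at least 1 library of each comparison, with 8 active in monocytes of the bone marrow, 9 in those of the spinal cord and 9 in APCs.

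How far these calls depend on the missing replicates was examined by widening the intervals as if libraries of 1 population varied. With a coefficient of variation of 0.4, the genes still called higher in spinal cord than in bone marrow monocytes were Ptgs2, Hpgds and Ptger4, and those in APCs than in bone marrow monocytes were Ptgs2 and Hpgds. No member was called lower in any comparison with that value or with 0.2.

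Other genes of the pathway comprised 62 symbols, of which 61 were listed. Between spinal cord and bone marrow monocytes 35 were active, of which 6 were called higher, 5 lower and 24 neither, with a median log2 difference of 0.18, beside 13.8% higher, 10.7% lower and a median of -0.145 over all active genes. Of the 17 genes of arachidonate release and handling, Pla2g7 and Lpcat2 were called higher and none lower. Pla2g7, which encodes the hydrolase of platelet-activating factor, was at 255 TPM in the bone marrow library and 648 TPM in both spinal cord libraries. Lpcat2, which encodes an enzyme that makes platelet-activating factor, was at 30.1 TPM in monocytes of the bone marrow, 111 TPM in those of the spinal cord and 138 TPM in APCs. These genes act on a neighbouring lipid mediator. Pla2g4a, whose cytosolic phospholipase A2 releases arachidonic acid, was at 22.0 TPM, 44.6 TPM and 42.0 TPM in the same order, and its difference between the monocyte libraries of 1.10 (0.98 to 1.23) in reads was not called, whereas 1.26 (1.13 to 1.38) in reads per effective length was called higher. APCs differed from bone marrow monocytes by 0.90 (0.77 to 1.03) in reads, which was not called, and by 1.25 (1.13 to 1.38) per effective length, which was called higher. Abhd12, a serine hydrolase gene, was called higher in APCs than in bone marrow monocytes by 1.35 (1.26 to 1.44) in reads, although its TPM levels of 112 and 58.4 lay within 2-fold.

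Of the 8 remaining prostanoid synthase genes, Akr1b3 and Ptges3 were the most abundant and were called in no comparison. Akr1b3 was at 146 TPM in monocytes of the bone marrow, 60.7 TPM in those of the spinal cord and 72.8 TPM in APCs, and Ptges3, whose product is also the chaperone partner p23, was at 125, 118 and 116 TPM. Ptgds, the gene of lipocalin-type prostaglandin D synthase, had 0 reads in monocytes of the bone marrow, 46 in those of the spinal cord and 11 in APCs. With bone marrow monocytes set to a floor of 3 reads per library, Ptgds was 21.4-fold higher in spinal cord monocytes, a ratio that leaves out counting error. The log2 difference of reads was 6.555 (3.762 to 12.67) and was called higher. Ptgds was called lower in APCs than in spinal cord monocytes, by -2.16 (-3.35 to -1.13). Cbr1, a carbonyl reductase gene, was called higher in APCs than in bone marrow monocytes by 2.21 (1.76 to 2.69), at 11.9 against 3.09 TPM.

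Of the 13 other leukotriene and lipoxygenase genes, Ltc4s and Mgst2, which both encode enzymes able to make leukotriene C4, were called in opposite directions. Ltc4s had 2 reads in monocytes of the bone marrow (0.387 TPM), 67 in those of the spinal cord (8.89 TPM) and 144 in APCs (17.8 TPM), with log2 differences from bone marrow monocytes of 5.14 (3.43 to 7.78) and 6.08 (4.40 to 8.71). Mgst2 was at 30.5, 7.75 and 6.00 TPM, and was called lower in both spinal cord libraries than in bone marrow monocytes. Cotl1, whose product binds 5-lipoxygenase, was the most abundant of this group at 1006, 590 and 594 TPM and was called in no comparison. Mgst1 was at 896, 447 and 342 TPM and was called lower in APCs than in bone marrow monocytes.

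Of the 7 other prostanoid receptor genes, Ptgir, the prostacyclin receptor gene, was the active one. It was at 12.2 TPM in monocytes of the bone marrow, 2.71 TPM in those of the spinal cord and 3.26 TPM in APCs, and was called lower in both spinal cord libraries than in bone marrow monocytes. The other 6, including Ptger1, were at most at 0.565 TPM in any library. Among the 7 receptor genes for leukotrienes and lipoxins, Ltb4r1, which encodes the leukotriene B4 receptor BLT1, was at 127 TPM in monocytes of the bone marrow, 82.6 TPM in those of the spinal cord and 23.7 TPM in APCs. It was called lower in APCs than in spinal cord monocytes, by -1.82 (-1.98 to -1.66), and than in bone marrow monocytes, by -2.11. Its neighbour Ltb4r2 lies close by and had at most 22 reads.

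Cmklr1, a receptor gene for chemerin that has also been assigned resolvin E1, was at 3.42 TPM in monocytes of the bone marrow, 186 TPM in those of the spinal cord and 179 TPM in APCs, with a difference of 6.02 (5.77 to 6.28) between the monocyte libraries. Cysltr2, a cysteinyl leukotriene receptor gene, was at 0.426, 3.32 and 1.76 TPM, and was called higher in spinal cord than in bone marrow monocytes. Its level was under the study's own activity threshold of 4 TPM in every library. Fpr2, the lipoxin and formyl peptide receptor gene, was the most abundant receptor at 222, 332 and 201 TPM, and was called in no comparison.

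Of the 10 genes of transport and breakdown, 9 were listed and 6 were active. Hpgd, whose dehydrogenase inactivates prostaglandin E2, was at 21.5 TPM in monocytes of the bone marrow, 3.12 TPM in those of the spinal cord and 5.25 TPM in APCs. Ptgr1, which encodes a reductase in the same breakdown route and for leukotriene B4, was at 50.9, 13.0 and 14.4 TPM, and Abcc4, a prostaglandin E2 exporter gene, at 39.4, 12.6 and 7.56 TPM. All 3 were called lower in both spinal cord libraries than in bone marrow monocytes, Hpgd by -2.45 (-2.85 to -2.08) and -1.73 (-2.03 to -1.44). Abcc1, a leukotriene C4 exporter gene, was called higher in APCs than in bone marrow monocytes by 1.23 (1.11 to 1.34) in reads, although its TPM levels of 18.5 and 10.3 lay within 2-fold. Cyp4f18, the most abundant of this group and the gene of a leukotriene B4 hydroxylase, was at 216, 225 and 169 TPM and was called in no comparison.

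Between APCs and spinal cord monocytes none of the 35 active pathway genes outside the 10 was called higher and 2 were called lower (Ltb4r1 and Ptgds), with a median of 0.06, beside 1.93%, 1.7% and -0.04 over all active genes. Between APCs and bone marrow monocytes 7 of 33 were called higher and 7 lower, with a median of 0.14, beside 14%, 11.8% and -0.17 over all active genes.

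**Figure D4:**
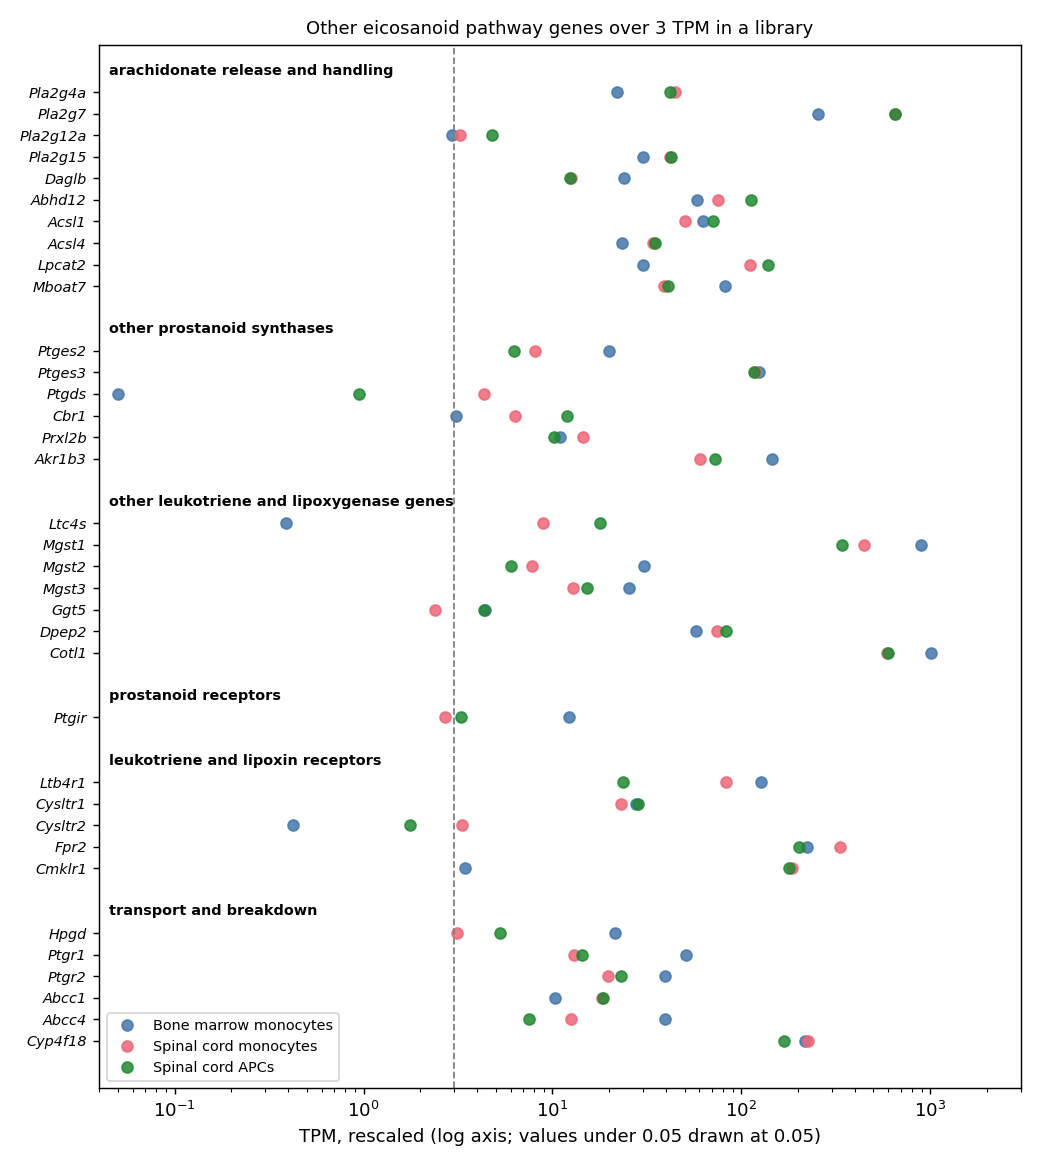
Levels in rescaled TPM (x axis, log) of the 35 other pathway genes (y axis, grouped by role) that were over 3 TPM in a library, for bone marrow monocytes (blue), spinal cord monocytes (red) and APCs (green), 1 library each. The dashed line is 3 TPM, and Ptgds, with 0 reads in bone marrow monocytes, is drawn at 0.05. Cmklr1 and Ltc4s are far lower in bone marrow monocytes than in the spinal cord libraries, and Hpgd, Ptgr1 and Abcc4 are highest in bone marrow monocytes.

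Several of these genes are also expressed by other cells that a sort may hold, so the markers of those cells were measured in the same libraries. Microglia express Ptgs1, Tbxas1, Hpgds and Ltc4s, and the study describes a gate on high CD45 that was meant to leave them out. The study itself reports slightly raised Tmem119 and P2ry12 in its APCs and does not exclude a few microglia there. It also estimates an upper limit of their share from Tmem119. The 8 microglial markers summed to 13.8 TPM in monocytes of the bone marrow, 157 TPM in those of the spinal cord and 418 TPM in APCs, led by Sparc (148 TPM in APCs) and P2ry12 (85.6 TPM). All 8 were called higher in the APC library than in that of spinal cord monocytes, and 7 of 7 active ones were called higher in spinal cord than in bone marrow monocytes, where Sall1 and Slc2a5 had 0 reads. Their part in the levels of these 4 genes was not tested.

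Neutrophils, which the Ly6G- gate was meant to remove, express Alox5, Alox5ap and Lta4h. The 7 neutrophil markers summed to 998 TPM in monocytes of the bone marrow, 187 TPM in those of the spinal cord and 411 TPM in APCs, led by Mmp8 (707 TPM in bone marrow monocytes) and Ngp (186 TPM). They did not move together. Of 6 active ones, 4 were called lower (Mmp8, Ngp, Camp and Ltf) and 2 higher (Cxcr2 and Retnlg) in spinal cord than in bone marrow monocytes, and 2 were called lower and 2 higher in APCs than in bone marrow monocytes. Between APCs and spinal cord monocytes 3 were called higher and none lower. Retnlg was at 1.77, 16.7 and 57.9 TPM, and Ly6g was under 3 TPM in every library. Their part in the leukotriene genes was not tested. Platelets express Ptgs1 and Tbxas1, and the 7 platelet markers summed to 33.7 TPM in bone marrow monocytes, led by Ppbp at 21.6 TPM, and to 1.27 and 1.11 TPM in the spinal cord libraries, where Gp1ba and Gp1bb had 0 reads. Their part was not tested. Mast cells express Hpgds and Ltc4s, and the 8 mast cell and basophil markers summed to 2.01, 0.665 and 0.962 TPM, with none over 3 TPM and Tpsb2 and Mcpt4 at 0 reads in every library.

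Among the remaining lists, T cell markers summed to 0.507 TPM in monocytes of the bone marrow, 36.1 TPM in those of the spinal cord and 51.8 TPM in APCs, led by Cd3g at 16.1 TPM in APCs. Eosinophil markers summed to 1.11, 4.01 and 9.75 TPM, most of it Siglecf, which was at 7.83 TPM in APCs. Endothelial markers summed to 0.452, 21.0 and 13.2 TPM, led by Cldn5. The 6 markers of conventional dendritic cells summed to 41.2, 21.8 and 32.2 TPM, but in bone marrow monocytes this was mostly Flt3, at 37.8 TPM there and 6.65 TPM in APCs. Clec9a was at 0.108, 4.38 and 7.40 TPM and Cd209a at 0.344, 1.10 and 7.07 TPM, and of 5 active markers 3 were called higher and 1 lower in APCs than in bone marrow monocytes, with a median of 4.33. Markers of B cells summed to 8.69, 3.52 and 3.79 TPM, and markers of neural cells to 75.2, 49.0 and 44.4 TPM, the last mostly Mbp. Whether any of these moved the 10 genes was not tested.

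**Figure D5:**
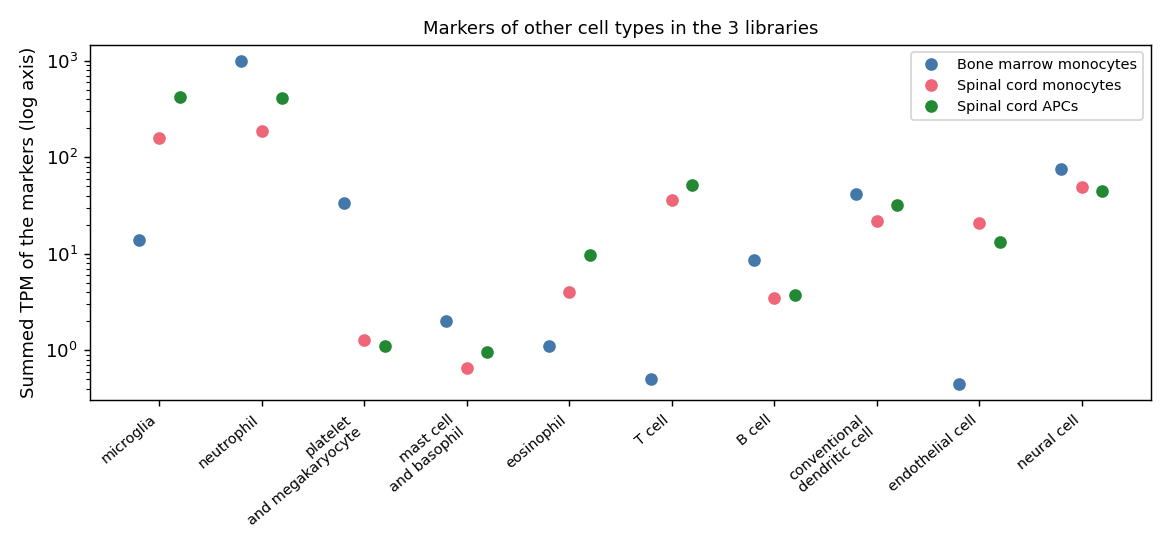
Summed rescaled TPM on a log axis (y axis) of the markers of 10 other cell types (x axis) in bone marrow monocytes (blue), spinal cord monocytes (red) and APCs (green), 1 library each. Microglial markers are lowest in bone marrow monocytes at 13.8 TPM and highest in APCs at 418 TPM, and platelet markers are highest in bone marrow monocytes at 33.7 TPM.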

How the data were processed

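RNA of the 3 populations was sequenced by the authors as 50 bp paired-end reads, and expression was estimated with Salmon 0.14.1 on GENCODE vM22 transcripts, pooled by gene. The TPM values, as deposited, already account for effective length and sequencing depth. The deposited estimated counts were not normalized, and hold fractions where reads were shared between transcripts. Effective lengths were deposited by the authors in bases. The 2 monocyte libraries list 54432 genes and the APC library 22242. How the smaller set was made is not given in the sources used here.

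TPM was rescaled over the 22238 common genes, and counts were rounded. The log2 ratio was the median of the ratio of 2 gamma variables, with 1 added to the reads, after scaling with size factors (median of ratios). Calls were modelled on the definition of differential expression in the study's methods, whose tool was not used. The study's activity threshold was 2 on log2 TPM, which is 4 TPM, and so stricter than the 3 rescaled TPM used here. Percentiles 1 and 99 gave the interval. No p-value was computed, since each population was 1 library. Wilson intervals were 95%. The scripts (Python 3.11.15, scipy 1.17.1, and edgeR 4.0.16 for the TMM factors) were tested on simulated data. Coordinates are those of GENCODE M21 (GRCm38), where 99% of common genes had the same identifier and version, and promoters from RefSeq. For values of members resting on at least 1000 reads (17 of 30), the Wilson interval extended at most 6.16% to either side.

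All 10 members were named, with pathway genes called in any comparison, the 2 most abundant genes of each pathway list, and of marker lists the 2 most abundant genes and defining genes at 0. The members and lists were chosen with earlier results of these data known. Protein sequences were not analysed here.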

Additional observations from a re-analysis of the deposited data

How the results depend on the processing

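No replicate could be left out, and no paired analysis was possible because each population was 1 library. Of 400 results for the 10 genes under other settings, 353 counted as the same, 32 lost the call, 10 gained a call, and 5 were uncalled values that moved. An uncalled value had moved where its sign changed and it left its counting interval. A change of sign within that interval counted as the same, so the 353 kept their side of the threshold but not always their direction. Settings of the TPM threshold, deposited TPM, interval bound, plain 2-fold rule and added spread left the ratio itself unchanged. There only the call could differ, and a stricter bound or added spread could not give an uncalled gene a call. The count of 353 is therefore high in part by construction. Under an added spread of 0.2 or 0.4, members called higher in spinal cord than in bone marrow monocytes fell from 6 to 3 and those called lower from 2 to 0. Members called in APCs against spinal cord monocytes fell from 1 to 0 in both directions, and those lower in APCs than in bone marrow monocytes from 3 to 0. Those higher in APCs than in bone marrow monocytes fell from 5 to 2 with a spread of 0.4. Between APCs and spinal cord monocytes, reads divided by effective length gave 0 members called higher and 2 lower, TPM plus 1 gave 0 and 2, TPM plus 0.1 gave 2 lower, the bound at 0.001 gave 0 lower, and a plain 2-fold change gave 2 higher. By their construction the spread settings widen the interval and the length and TPM settings rest on the deposited lengths, and the other causes were not tested. The shift of the log2 ratio was also taken for each common gene, active or not. Between the monocyte libraries its median was -0.184 with scaling by total reads, -0.476 with TPM plus 1 and -0.247 with all genes of these libraries. Between APCs and bone marrow monocytes the median shift was -0.138 with total reads and -0.325 with TPM plus 1. The share of higher calls among all calls went from 56.4% to 41.0% with TPM plus 1, 39.4% with TPM plus 0.1 and 46.3% with all genes of the monocyte libraries. In APCs it went from 53.3% to 34.2% with TPM plus 1 and 42.0% per effective length against spinal cord monocytes, and from 54.3% to 35.1% with TPM plus 1 against bone marrow monocytes. Calls over all genes ranged from 620 to 2623 higher and 218 to 2137 lower between the monocyte libraries (1386 and 1073 as reported), from 41 to 385 and 14 to 617 between APCs and spinal cord monocytes (188 and 165), and from 714 to 2870 and 222 to 2682 between APCs and bone marrow monocytes (1426 and 1199). Depth limits Hpgds in bone marrow monocytes, at 5 reads.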
